A study of Caenorhabditis elegans with 6 samples.

Results

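A set of 8 germline genes of Caenorhabditis elegans was followed in worms grown on the organophosphorus insecticide diazinon (DZN): glh-1, glh-2, glh-3, glh-4, pgl-1, pgl-3, deps-1 and glp-1. They were chosen by name, not by their values, though earlier results of these data were known. Every array probe whose sequence name belongs to 1 of these 8 genes was taken. This gave 12 of the 22490 worm probes, 4 for pgl-3, 2 for glh-4 and 1 for each of the other genes, out of probes for 17922 genes with a current name. P granules are RNA and protein condensates that sit at the nuclear pores of germ cells, where many transcripts pass through them on leaving the nucleus. GLH proteins are DEAD-box RNA helicases related to Vasa, PGL proteins form the scaffold of the granule through their own self-assembly, and DEPS-1 is a granule protein on which the assembly of the others depends. GLP-1 is a Notch receptor of the germ cells, and its activation by a ligand from the distal tip cell of the gonad keeps germline stem cells dividing.

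No change of mRNA level with DZN was detected for any of the 8 genes. In limma no measured probe of these genes passed an adjusted p of 0.05, and the fitted log2 ratios of DZN over control lay between -0.34 for glh-4 and 0.15 for glp-1. In this fit every 95% interval lay within a 2-fold change in either direction. The mean ratio was higher on the arrays where DZN carried Cy5 for each of the 8 genes, but no probe passed the test of that difference (lowest adjusted p = 0.316), and the arrays of the 2 orientations lay on opposite sides of 0 for glh-1, pgl-3 and glp-1 alone. The levels of deps-1 and of the brightest pgl-3 probe were far lower on 1 array, DZN-Cy5 replicate 2, than on the others.

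The material was whole N2 worms, the wild type strain, grown from eggs for 72 h at 16 °C on agar that held DZN in acetone, or acetone alone for the control, and fed Escherichia coli OP50. Each extract pooled worms of several dishes, and the methods describe the 6 arrays as independent biological replicates, each with 1 DZN and 1 control extract. DZN was labelled with Cy5 on 3 arrays (DZN-Cy5 replicates 1 to 3) and with Cy3 on 3 arrays (DZN-Cy3 replicates 1 to 3). The sources disagree on the dose, which is 1 mg/ml in the sample names, 0.5 mg/ml in the treatment protocol and stated per litre in the methods, and on the stage, which is L3 in the protocol and L3 to L4 elsewhere, so neither is settled here. In whole worms fewer germ cells and less RNA in each germ cell cannot be told apart.

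The DZN-Cy3 arrays were brighter, with 63.3% to 81.4% of worm probes above background in a channel, against 49.7% to 66.2% on the DZN-Cy5 arrays, so brightness and orientation cannot be told apart. Above background here means a spot foreground at least 2 SD over the mean of the local backgrounds in that channel. Of the markers of other tissues, 7 of 7 for intestine, 7 of 7 for body wall muscle, 7 of 8 for neurons and 6 of 7 for hypodermis were above background on all 12 channels, as were 8 of 11 for meiotic germ cells, 6 of 9 for oocytes and 5 of 11 for sperm. For gonadal sheath and distal tip cells it was 3 of 7. Ratios of 2 arrays, turned to DZN over control, correlated between -0.24 and 0.57 over all probes (median 0.13, probes are not independent replicates).

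Among the 12 probes, 6 were above background on all 12 channels, 1 each for glh-1, glh-2, glh-4, pgl-1, pgl-3 and deps-1. The probes of glh-3 and glp-1 were above background on 5 of 6 DZN and 5 of 6 control channels. The dimmer probe of glh-4 was above background on no channel, so no value is given for it, and 11 probes remained. Where a gene has several probes, the brightest represents it. No coordinates are printed, as no source used here names the genome build of the probes.

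GLH-1 is the best known of the worm's Vasa relatives, and its loss leaves animals sterile at raised temperature. For glh-1 (T21G5.3) the log2 ratio stood at 0.20, 0.39 and 0.49 on the DZN-Cy5 arrays, given here and below in the order of replicates 1 to 3, and -0.17, -0.08 and -0.29 on the DZN-Cy3 arrays. The 2 orientations did not overlap and lay on opposite sides of 0. Normalized levels, as log2 intensity, ran from 13.02 to 13.66 in control (median 13.45) and from 13.19 to 13.84 in DZN (median 13.46). These ranges, here and below, describe the levels over arrays. Since each array pairs DZN with control, the treatments are compared by the ratio. The fit gave 0.09 ± 0.10 (SE, n = 6 arrays, adjusted p = 0.755), with a 95% interval of 0.91 to 1.25 as a fold.

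GLH-2 is a close paralogue of GLH-1, and whether their probes share target RNA was not tested. The glh-2 (C55B7.1) ratio was -0.13, 0.57 and 0.18 on the DZN-Cy5 arrays and -0.43, 0.05 and 0.57 on the DZN-Cy3 arrays, so both orientations held positive and negative values. Levels ran from 8.56 to 9.91 in control (median 9.32) and from 8.74 to 10.47 in DZN (median 9.23). The fitted ratio was 0.14 ± 0.16 (adjusted p = 0.780).

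GLH-3 is a smaller member of the helicase family. The glh-3 (B0414.6) ratio was 0.17, 0.31 and 0.01 with DZN in Cy5 and -0.40, -0.14 and 0.35 with DZN in Cy3, the last being the highest of the 6. Levels overlapped, with 7.76 to 10.05 in control (median 9.08) and 8.0 to 10.01 in DZN (median 8.88). The fitted ratio was 0.05 ± 0.12 (adjusted p = 0.909), and it was -0.05 without DZN-Cy3 replicate 3.

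GLH-4 acts partly in place of GLH-1, since loss of both disturbs the germ line more than loss of either. Of the 8 genes, glh-4 (T12F5.3) had the lowest fitted ratio, -0.34 ± 0.22 (adjusted p = 0.606, unadjusted p = 0.161). Its ratio was 0.14, -1.07 and 0.80 on the DZN-Cy5 arrays, which spanned both signs, and -0.51, -0.57 and -0.85 on the DZN-Cy3 arrays, all below 0. Levels were 10.56 to 11.51 in control (median 10.95) and 9.56 to 11.65 in DZN (median 10.41), where the DZN range enclosed the control range. The interval of 0.55 to 1.13 as a fold left room for a fall to 0.55 of the control level. Over fits with 1 array left out the ratio ran from -0.55 to -0.09, the latter without DZN-Cy5 replicate 2.

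PGL-1 is a constitutive P granule protein with RNA-binding repeats. For pgl-1 (ZK381.4) the ratio was -0.00, -0.06 and 0.28 on the DZN-Cy5 arrays and -0.02, 0.08 and 0.10 on the DZN-Cy3 arrays, the narrowest range of the 8 genes. Levels were 14.83 to 15.27 in control (median 15.07) and 14.91 to 15.37 in DZN (median 15.12). The fitted ratio was 0.06 ± 0.10 (adjusted p = 0.842). This spot was bright enough that between 50.6% and 50.8% of its pixels (over 50% counts as saturated) were at the limit in the control channel of all 3 DZN-Cy3 arrays, which puts a ceiling on the control value there, while on the DZN-Cy5 arrays none was in either channel. In the DZN channel of DZN-Cy3 replicate 2, 15.2% of its pixels were at the limit too.

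PGL-3 is the paralogue that shares the scaffold role of PGL-1. The brightest pgl-3 probe (C18G1.4a) gave ratios of 0.19, 0.37 and 1.09 on the DZN-Cy5 arrays and -0.82, -0.32 and -0.65 on the DZN-Cy3 arrays, with no overlap between orientations. In the fit these opposed values cancelled, to -0.02 ± 0.14 (adjusted p = 0.969). Levels ran from 8.40 to 12.58 in control (median 11.57) and from 8.77 to 12.65 in DZN (median 11.13).

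The other probes of pgl-3 were also higher on the DZN-Cy5 arrays on average. Probe 2 in order of brightness, named for the transcript C18G1.4b, gave 0.36, 0.47 and 1.12 with DZN in Cy5 and -0.71, -0.44 and -0.16 with DZN in Cy3, and a fitted ratio of 0.11 ± 0.14 (adjusted p = 0.805). Probe 3 gave 0.03, 0.32 and 2.30 against -1.03, -0.52 and -0.10, with a fit of 0.17 ± 0.29 (adjusted p = 0.866). Probe 4, above background on 5 of 6 DZN and 4 of 6 control channels, gave 0.10, -0.01 and 1.04 against -0.73, -0.39 and 0.32, so its orientations overlapped. On DZN-Cy5 replicate 3 each of the 4 probes had its highest ratio. Across the 6 arrays the 4 probes correlated pairwise with Pearson's r between 0.77 and 0.96 (6 pairs, on shared arrays and shared target RNA).

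DEPS-1 is needed for PGL proteins to gather in granules and for a normal amount of glh-1 mRNA. The deps-1 (Y65B4BL.2) ratio was -0.18, -0.02 and 1.62 on the DZN-Cy5 arrays and -0.53, -0.31 and -0.33 on the DZN-Cy3 arrays. A single array, DZN-Cy5 replicate 3, was above 0, and the other 5 were below. The fitted ratio was 0.04 ± 0.23 (adjusted p = 0.964), and without DZN-Cy5 replicate 3 it was -0.24 (adjusted p = 0.445). Levels ran from 8.26 to 12.26 in control (median 10.63) and from 8.25 to 12.34 in DZN (median 10.39).

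For glp-1 (F02A9.6), the stem cell receptor, the ratio was 0.20, 0.25 and 0.89 on the DZN-Cy5 arrays and -0.13, -0.28 and -0.03 on the DZN-Cy3 arrays. As for glh-1 and pgl-3, the orientations did not overlap and had opposite signs. Levels were 7.22 to 9.43 in control (median 8.34) and 7.19 to 9.47 in DZN (median 8.40). The fitted ratio, 0.15 ± 0.12 (adjusted p = 0.683), was the highest of the 8 genes.

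**Figure D1:**
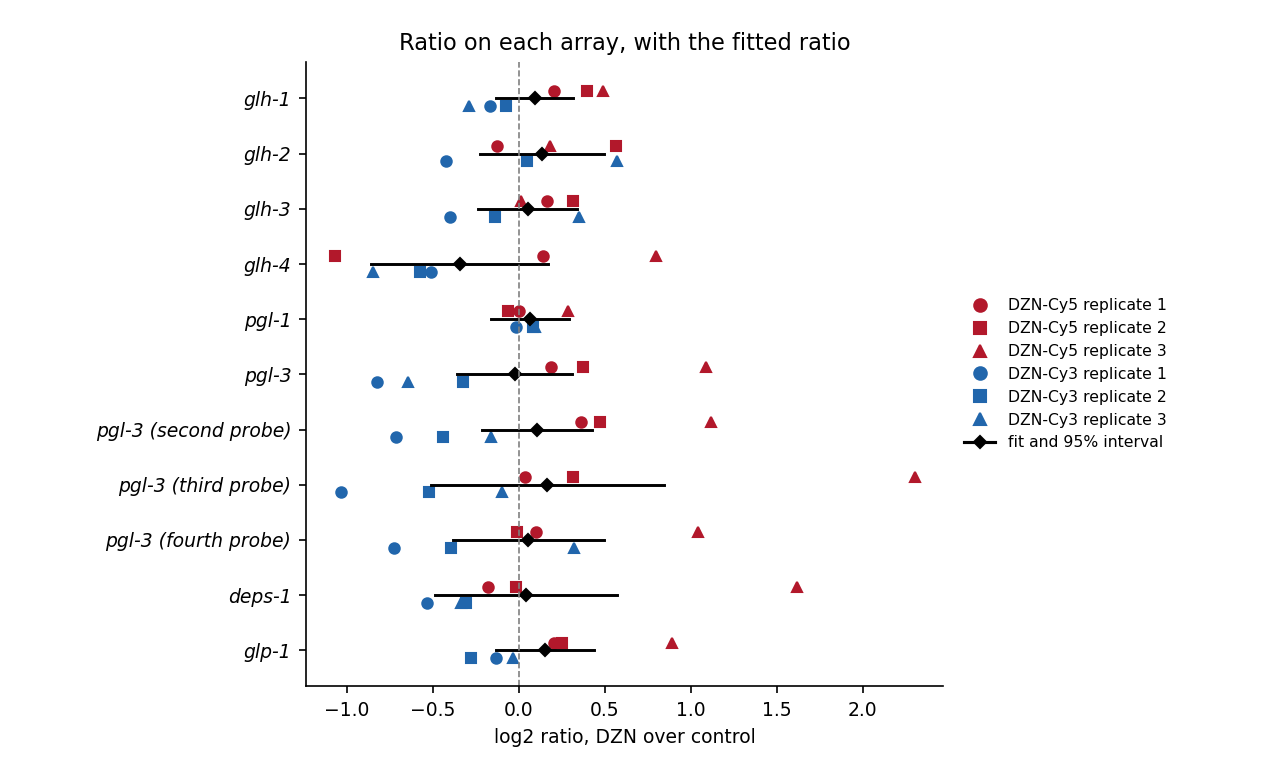
The log2 ratio of DZN over control (horizontal axis) is plotted for each measured probe on each of the 6 arrays, with red points for DZN in Cy5 and blue points for DZN in Cy3. Black diamonds with bars are the limma fit and its 95% interval, every one of which spans 0, while the red and blue points of glh-1, the 3 brighter pgl-3 probes and glp-1 fall on opposite sides of 0.

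Counted together, 0 of the 11 measured probes were called for DZN by limma, where 0.0178% of all worm probes were called (0.0133% higher and 0.00445% lower), so a count of 0 is what that background would give. At an unadjusted p under 0.05 the count was also 0, with 10.9% of all probes past that limit. Rank products, the test of the study, called 0 of the 11 at a percentage of false positives under 0.05, against 1.04% of all probes (0.502% higher and 0.538% lower). No probe of the 8 genes had 1 sign on all 6 arrays, where 2.06% of all probes were above 0 and 3.11% below 0 on all 6. Of the 8 genes, 6 had a fitted ratio above 0 and 2 below, and their median was 0.06, beside 0.00 over all probes. The lowest and highest bounds of the 8 intervals were 0.55 and 1.49 as folds.

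The median ratio of the 8 genes followed the dye orientation. It was 0.15, 0.28 and 0.64 on the DZN-Cy5 arrays and -0.41, -0.21 and -0.16 on the DZN-Cy3 arrays. On DZN-Cy5 replicate 3 all 8 genes were above 0, and on DZN-Cy3 replicate 1 none was. Between the orientations the mean ratio differed by 0.54 for glh-1, 1.15 for pgl-3, 0.87 for deps-1, 0.60 for both glh-4 and glp-1, 0.23 for glh-3, 0.14 for glh-2 and 0.02 for pgl-1, in each case with the DZN-Cy5 arrays higher. The median of these differences was 0.57, beside -0.02 over all probes, and 20.0% of all probes had a difference of greater size in either direction. The 0.02 of pgl-1 rests on DZN-Cy3 arrays where its control channel was saturated. With no background correction 7 of the 8 genes were higher on the DZN-Cy5 arrays, and without DZN-Cy3 replicate 1 it was 6 of 8.

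Tested probe by probe, the dye term of the fit did not separate the orientations after adjustment over all probes. The lowest adjusted p among the 11 probes was 0.316, for pgl-3, and 0.0% of all probes passed. At an unadjusted p under 0.05 the count was 5 of 11 (glh-1, glp-1 and the 3 brighter pgl-3 probes), against 11.7% of all probes. The same 5 probes were above 0 on all DZN-Cy5 arrays and below 0 on all DZN-Cy3 arrays, a pattern held by 3.37% of all probes. The reverse pattern, held by 3.22% of all probes, was seen in none of the 11. Since 3 of these 5 probes measure 1 gene, and all share the same 6 arrays, the count is a description. Without DZN-Cy5 replicate 3 the median difference over the 8 genes was 0.30. With median centring in place of loess it was 1.28, and the dye term then passed for glh-1, pgl-1 and the 2 brightest pgl-3 probes (lowest adjusted p = 0.0406). In that setting it also passed for 1394 of the 22490 worm probes, and the median difference over all probes was 0.15.

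Markers of other germ cell stages were mostly higher in the DZN-Cy5 orientation too, with no test of the lists. Sperm markers were higher in the DZN-Cy5 orientation for 11 of 11 genes (median difference 0.92), oocyte markers for 9 of 9 (0.77) and meiotic germ cell markers for 9 of 11 (0.42). The array medians of the sperm list (-0.28, 0.04 and 0.72 against -1.17, -1.16 and -0.19) and of the oocyte list (-0.14, 0.01 and 0.97 against -0.75, -0.66 and 0.24) overlapped between orientations. Those of the meiotic list did not (0.16, 0.06 and -0.14 against -0.43, -0.20 and -0.22). Nor did those of gonadal sheath and distal tip cells (0.09, -0.01 and 0.23 against -0.05, -0.08 and -0.06). Neuron medians were split the other way (-0.07, 0.08 and -0.32 against 0.14, 0.11 and 0.22). For DZN over control, 11 of 11 sperm markers had a fitted ratio below 0 (median -0.24), and 1 of them, spe-11 at -1.02 ± 0.17, was called lower by rank products but not by limma (adjusted p = 0.133). Among markers outside the germ cells the median difference was 0.17 for gonadal sheath and distal tip cells, 0.11 for intestine, 0.10 for hypodermis, -0.04 for body wall muscle and -0.23 for neurons. The summed level of the sperm markers ran from 15.22 to 16.32 in control and from 14.31 to 16.56 in DZN, that of the oocyte markers from 12.56 to 14.32 and from 12.59 to 14.23, and that of the meiotic markers from 13.79 to 14.31 and from 13.61 to 14.34, as log2 of summed intensities. Of these markers only spe-38, a sperm gene, was above background on no channel. Their part in the result for the 8 genes was not tested.

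**Figure D2:**
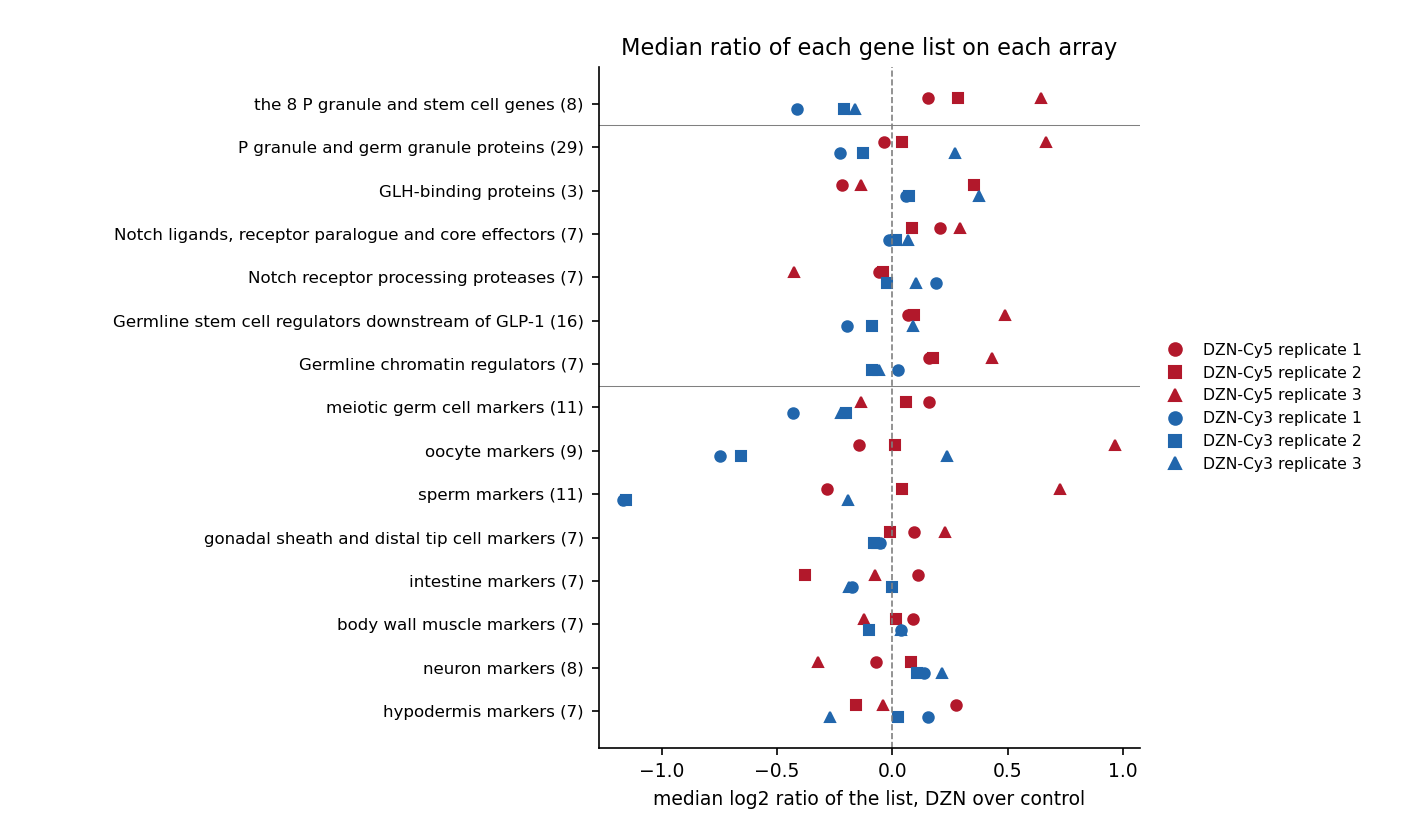
The median log2 ratio of DZN over control (horizontal axis) of each gene list is plotted on each of the 6 arrays. Brackets give the number of genes with a probe, and points are red for DZN in Cy5 and blue for DZN in Cy3. For the 8 genes the 3 red points lie between 0.15 and 0.64 and the 3 blue points between -0.41 and -0.16, and the sperm list reaches -1.17 on a DZN-Cy3 array.

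The level of deps-1 and of the brightest pgl-3 probe differed between arrays, chiefly through DZN-Cy5 replicate 2. Averaged over both channels of an array, the brightest pgl-3 probe stood at 10.90, 8.59 and 12.10 on the DZN-Cy5 arrays and at 11.17, 12.42 and 11.59 on the DZN-Cy3 arrays, a range of 3.83 or 14.3-fold that was exceeded by 1.37% of all probes. For deps-1 the levels were 9.72, 8.25 and 11.53, then 10.27, 12.11 and 10.94, a range of 3.85 or 14.4-fold (exceeded by 1.32% of all probes). Both genes were lowest on DZN-Cy5 replicate 2 and highest on DZN-Cy3 replicate 2, in the control channel as in the DZN channel for the lowest value. The median range over all probes was 1.36. On DZN-Cy5 replicate 2 the brightest pgl-3 probe read 283 over a local background of 153 in DZN and 178 over 150 in control. For deps-1 the readings were 228 over 153 and 179 over 149. Both probes counted as above background there, but these low readings set the bottom of their ranges. Without DZN-Cy5 replicate 2 the range was 1.52 or 2.87-fold for pgl-3 (exceeded by 26.7% of all probes) and 2.38 or 5.21-fold for deps-1 (exceeded by 5.41%).

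The other pgl-3 probes had ranges of 1.64, 1.95 and 2.24 for probes 2, 3 and 4, exceeded by 37.3%, 25.3% and 16.6% of all probes. Each was narrower than the range of the brightest probe. Probe 2 ran the other way, with its highest level, 10.38, on DZN-Cy5 replicate 2, while probes 3 and 4 were lowest there at 7.65 and 6.14. On that array probe 3 read 206 over a local background of 155 in DZN and 163 over 152 in control. Probe 4 read 162 over 159 in DZN and 157 over 153 in control. So near background a deeper fall of these 2 probes could not have been seen. Like probe 2, the helicases glh-2 and glh-3 were high on that array, at 10.19 and 9.85. Ranges between arrays were 2.16 for glp-1, 2.07 for glh-3, 1.54 for glh-2 and 1.48 for glh-4. The range of glh-1 was 0.51, exceeded by 88.0% of all probes. That of pgl-1 was 0.38, but its control channel was saturated on the 3 DZN-Cy3 arrays, which limits the range that could be seen. The summed level of the 8 genes, in which pgl-1 and glh-1 weigh most, lay between 15.51 and 16.00 in control and between 15.57 and 16.00 in DZN.

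**Figure D3:**
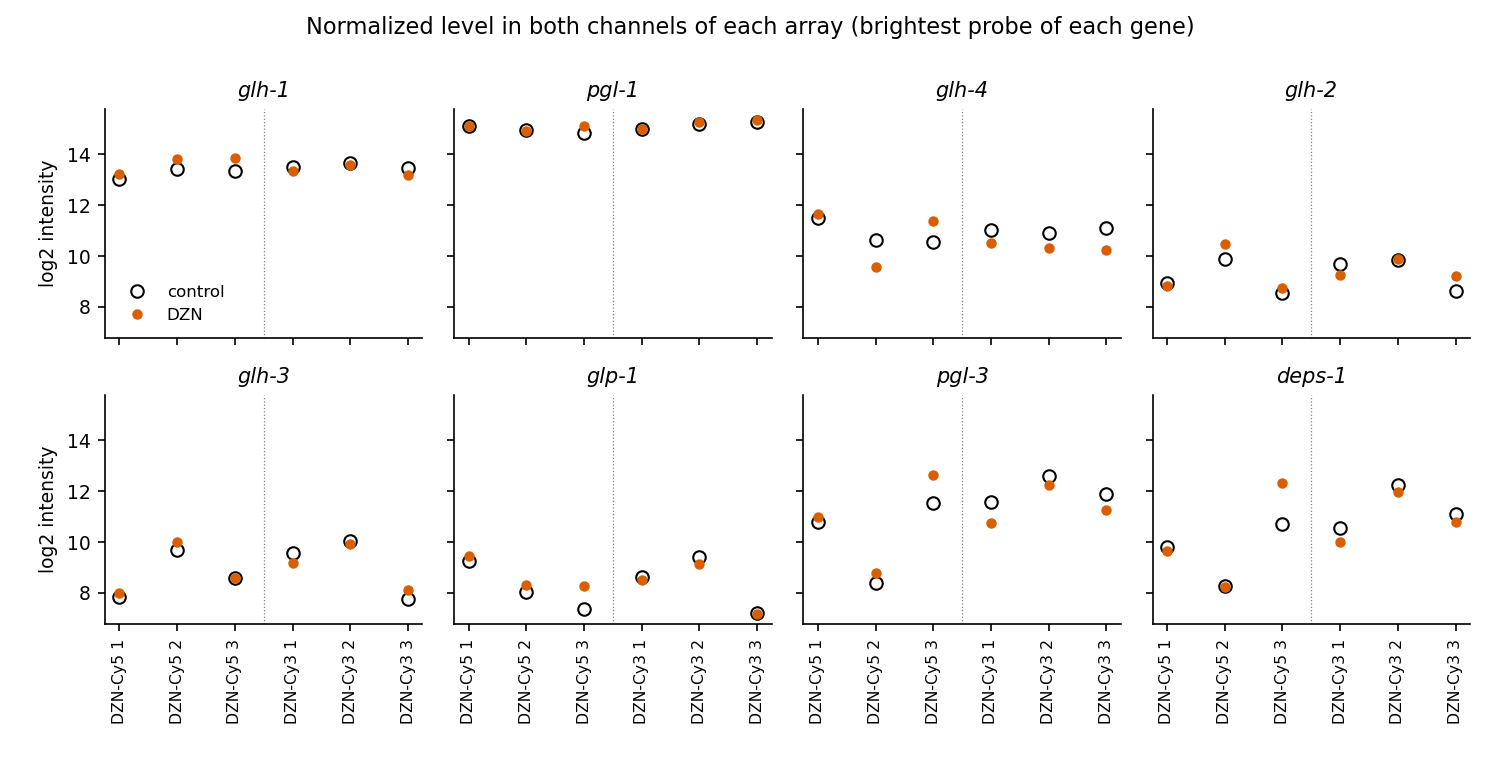
The normalized log2 intensity (vertical axis) of the brightest probe of each gene is plotted for the control channel (open circles) and the DZN channel (filled circles) of each array, with a dotted line between the dye orientations. The widest gap between the 2 channels of an array is 1.62 (deps-1 on DZN-Cy5 replicate 3), while pgl-3 and deps-1 drop to 8.59 and 8.25, as the mean of both channels, on DZN-Cy5 replicate 2.

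Among themselves, the ratios of the 8 genes correlated with Pearson's r from -0.37 (glh-2 with glh-4) to 0.95 (glh-1 with pgl-3) over the 6 arrays, with a median of 0.50 and 25 of 28 pairs above 0. These values describe 6 arrays that all genes share and carry no test. The helicases glh-2 and glh-3 followed each other (0.85), and deps-1 followed glp-1 (0.93) and pgl-3 (0.88), with DZN-Cy5 replicate 3 the highest array of each of these 3. The mean ratio of the 6 genes above background on all channels was 0.04, 0.03 and 0.74, then -0.41, -0.19 and -0.24. Of 9296 other probes, those most like this mean over the 6 arrays were of rps-26 (r = 0.994), mig-6 (0.993), acox-1.4 (0.992), Y14H12B.1 (0.989) and idpc-7 (0.989), and 3.80% of them had an r above 0.9.

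Other genes of the same granules and of the same signalling pathway were read from the same fit. No gene of the 6 pathway lists was called by limma or by rank products in either direction. Of 29 P granule and germ granule genes with a probe, 18 were above background on all 12 channels and 1, meg-4, on none. They include helicases, Argonautes and translation regulators of the granules. With meg-4 kept, at 0.11, 21 of the 29 were above 0 and 8 below, with a median of 0.07. The lowest was pgl-2, a further member of the PGL family, at -0.27, -0.24 and -1.48 on the DZN-Cy5 arrays and -0.45, -0.22 and -0.71 on the DZN-Cy3 arrays. It was below 0 on 6 of 6 arrays, but the fitted ratio of -0.56 ± 0.18 did not pass (adjusted p = 0.358, unadjusted p = 0.0155). The 3 genes for proteins that bind GLH helicases had ratios of 0.24 ± 0.16 for csn-5 (a COP9 signalosome subunit, adjusted p = 0.6248), 0.04 ± 0.12 for zyx-1 and -0.06 ± 0.12 for kgb-1 (a JNK-type kinase).

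Around the receptor GLP-1, the 7 measured genes for Notch ligands, the other Notch receptor and core effectors had a median of 0.07, with 6 above 0 and 1 below. The smallest p among them was that of lin-12, the other Notch receptor of the worm, at 0.22 ± 0.12 (adjusted p = 0.545). The 7 genes for proteases that cut Notch receptors had a median of -0.09, with 3 above 0 and 4 below. The lowest, pen-2, a gamma-secretase subunit, had -0.28 ± 0.11 (adjusted p = 0.425) and was below 0 on 4 of 6 arrays.

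Downstream of GLP-1, 16 regulators of germline stem cells and of their entry into meiosis had a median of 0.08, with 11 above 0 and 5 below. The gene with the smallest p was fog-1, which promotes the sperm fate, at 0.37 ± 0.11 (adjusted p = 0.328), and its ratio was above 0 on 6 of 6 arrays. The direct targets of GLP-1 that keep stem cells undifferentiated, named here after their values were seen, had 0.33 ± 0.14 for sygl-1 (adjusted p = 0.448) and 0.08 ± 0.11 for lst-1 (adjusted p = 0.815). The 7 germline chromatin regulators had a median of 0.12, with 6 above 0 and 1 below. The exception was mes-6, a Polycomb group subunit, at -0.44 ± 0.13 (adjusted p = 0.334) and below 0 on 6 of 6 arrays.

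**Figure D4:**
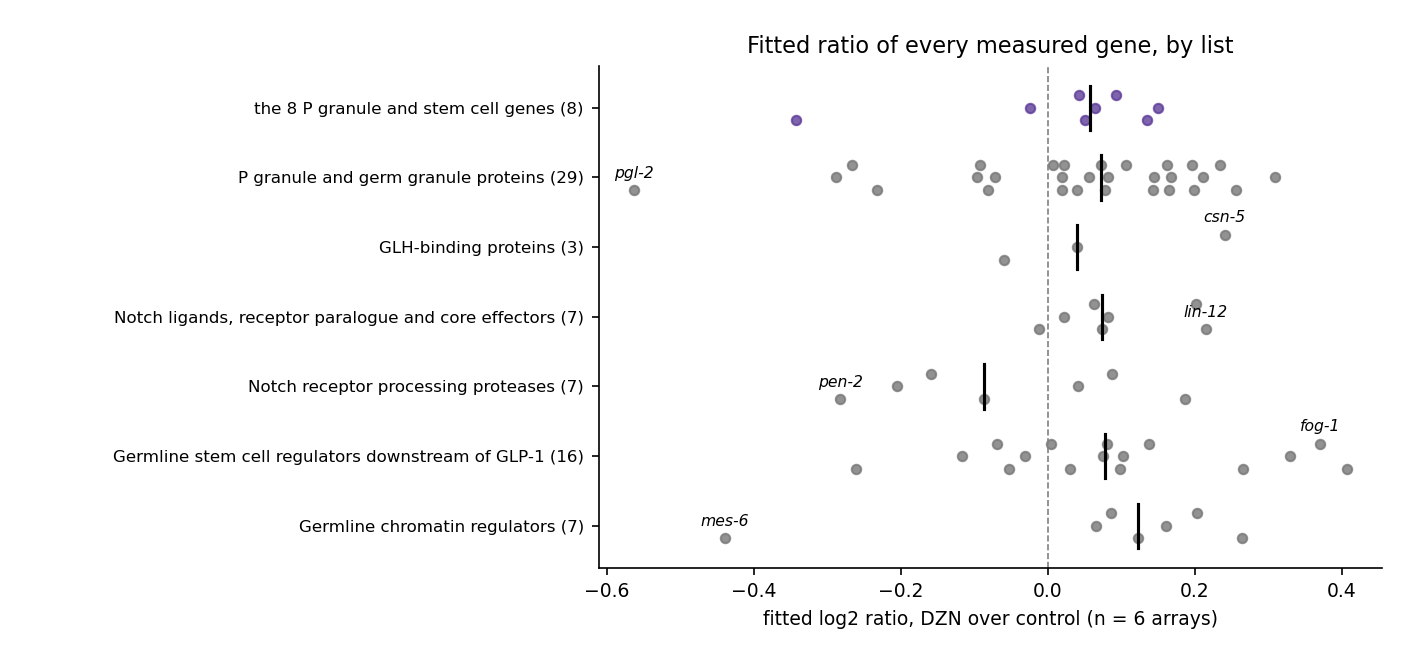
Each point is the fitted log2 ratio of DZN over control (horizontal axis, n = 6 arrays) of 1 gene by its brightest probe. Rows hold the 8 genes and 6 lists of related genes, with the number that have a probe in brackets. The gene of smallest p is labelled in each list. Black ticks mark list medians, which lie between -0.09 and 0.12, and no point shown passed the adjusted threshold.

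Within these lists the orientation difference had a median of 0.35 for the chromatin regulators, 0.33 for the granule genes (22 of 29 higher in the DZN-Cy5 orientation), 0.22 for the stem cell regulators (13 of 16) and 0.15 for the Notch ligands and effectors. It was -0.18 for the GLH-binding proteins and -0.24 for the Notch proteases. Each of these was below the 0.57 of the 8 genes in size, and the differences between lists were not tested. The array medians of the chromatin regulators did not overlap between orientations (0.16, 0.18 and 0.43 against 0.02, -0.09 and -0.06). Nor did those of the Notch ligands and effectors (0.21, 0.08 and 0.29 against -0.01, 0.02 and 0.07). Those of the Notch proteases were split the other way (-0.06, -0.04 and -0.42 against 0.19, -0.02 and 0.10). Medians of the granule genes overlapped between orientations (-0.03, 0.04 and 0.67 against -0.23, -0.13 and 0.27). So did those of the stem cell regulators (0.07, 0.10 and 0.49 against -0.20, -0.09 and 0.09) and of the GLH-binding proteins (-0.22, 0.35 and -0.13 against 0.06, 0.07 and 0.37).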

How the data were processed

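RNA of DZN-treated and control worms was compared on 6 two-colour oligonucleotide arrays in a dye-swap design. In the deposited scanner output each spot has a linear intensity in both channels, for foreground and for local background, with no normalization. They also hold the percent of saturated pixels and a quality score per spot, deposited as a code that no source used here explains. A further table by the authors holds log2 ratios, which lay close to loess without background correction, already turned to DZN over control (correlations rounding to 0.9997 or more and slopes of 0.9988 to 1.0008 on the 6 arrays), and it served as an alternative.

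Spot means were corrected with normexp (offset 50), normalized by loess within arrays (control spots at weight 0) and by Aquantile between arrays, and fitted per probe with lmFit and eBayes of limma 3.58.1 (R 4.3.3), with DZN and dye orientation as terms. P-values are two-sided and Benjamini-Hochberg adjusted over 22490 worm probes (threshold 0.05), with 4 residual degrees of freedom and 3.56 from the prior. The methods name loess, Aquantile and limma, and call genes with the Rank Product package. Here rank products were computed from the published definition with gamma-law p-values and a percentage of false positives under 0.05. Both procedures were tested on simulated data. The dye orientation difference is the mean ratio of the DZN-Cy5 arrays minus that of the DZN-Cy3 arrays. The number of arrays limits the precision.

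Probe names were matched to current genes with RefSeq's gene table for WBcel235 (21382 probes by name, 31 by the platform table, 1077 unmatched). The brightest probe, with the highest mean log2 intensity, represents a gene. In each pathway list the genes called, or otherwise the gene with the smallest unadjusted p, are named, as are all probes of the 8 genes and the 5 probes most like their mean. The 8 genes, the lists and the markers were chosen with earlier results of these data known, so the lists are no independent evidence. Listed genes without a matched probe (mut-16, epn-1 and dmc-1) were not analysed here. All 6 arrays were quantified on 1 day. Alternatives covered background, normalization, filters, prior, pairing, input table, test and each array left out.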

Additional observations from a re-analysis of the deposited data

Results flagged for a closer look

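The ratio of DZN over control was above 0 on all DZN-Cy5 arrays and below 0 on all DZN-Cy3 arrays for glh-1, glp-1 and 3 of the 4 pgl-3 probes. The difference between the orientations was 0.54 for glh-1 (adjusted p = 0.372 for the dye term of limma), 1.15 for the brightest pgl-3 probe (adjusted p = 0.316), 1.09 for probe 2 of pgl-3 (adjusted p = 0.316), 1.44 for its probe 3 (adjusted p = 0.412) and 0.60 for glp-1 (adjusted p = 0.417), so none passed the adjusted threshold. The median ratio of the 8 genes showed the same split, with array medians averaging 0.36 on the DZN-Cy5 arrays and -0.26 on the DZN-Cy3 arrays, a difference of 0.62 that was not tested.

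For deps-1 the ratio of 1.62 on DZN-Cy5 replicate 3 stood far from the other 5 arrays, which lay between -0.53 and -0.02. By chance alone about 1 of 20 groups would pass the limit used for such gaps.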

How the results depend on the processing

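No probe of the 8 genes passed the threshold under any of the 13 other settings with all arrays or with any array left out, and the lowest adjusted p in any of them was 0.368, for probe 3 of pgl-3 with only spots of code 3, where its ratio was 0.88. Their median ratio stayed between 0.02 and 0.17. Of 210 values of single probes in other settings, 20 turned sign and 190 did not. Many could not, as omitting Aquantile, the dye term or dim probes, another prior, a replicate block or averaging same-numbered arrays left every ratio unchanged. The count over all worm probes, 4 by default, was 2 with no background correction, 2 with plain subtraction and 2 with the authors' table, 8 with scale normalization, 14 with dim probes left out, 16 with a robust and trended prior, 30 with median centring and 234 by rank products, and between 0 and 132 with 1 array left out (0 once DZN-Cy5 replicate 1 is dropped and 0 for DZN-Cy3 replicate 2, 1 for DZN-Cy5 replicate 3 and for DZN-Cy3 replicate 1, 132 for DZN-Cy3 replicate 3). With median centring the dye term passed for 4 probes of the 8 genes and for 1394 of the 22490 worm probes, against 0 of either by default. The cause was not tested.

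The sign of the brightest pgl-3 probe (-0.02) turned to 0.058 with plain subtraction, 0.046 with normexp at offset 0 and 0.020 with only spots of code 3, to 0.11, 0.17 and 0.055 with probes 2, 3 and 4 in its place, and ranged from -0.16 to 0.067 with 1 array left out. Probe 2 gave -0.011 with only spots of code 3, probe 4 -0.052 with median centring, deps-1 -0.034 with median centring and -0.0020 with scale normalization, and glp-1 -0.0019 with only spots of code 3. The ratio of glp-1, 0.15 by default, was 0.35 with plain subtraction, 0.31 with normexp at offset 0 and 0.09 with no background correction. For probe 3 of pgl-3, 0.17 by default, these settings gave 0.39, 0.34 and 0.06. The 95% intervals, and their place within 2-fold, are those of the default fit alone. With 1 array left out the ratio ran from -0.052 to 0.13 for glh-3, from -0.011 to 0.18 for probe 2 of pgl-3, from -0.19 to 0.38 for probe 3, from -0.11 to 0.17 for probe 4 and from -0.24 to 0.21 for deps-1. These last 4 lows came without DZN-Cy5 replicate 3.

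The replicate numbers gave no sign of pairing the arrays. With the mean of its orientation taken off each ratio, same-numbered arrays correlated at 0.20, -0.06 and -0.19 over 9458 probes. Differently numbered arrays of opposite orientation correlated between -0.47 and 0.41. With the number as a replicate block 4 probes were called and 0 of the 8 genes. The median stayed at 0.06 by construction, so it says nothing about pairing. The dye orientation difference without each array in turn, added after the data were seen, had a median between 0.30 and 0.61 over the 8 genes. It was above 0 for 8 of 8 genes by default, and for 7 with no background correction and with the authors' table. With 1 array left out it was above 0 for 6 to 8 genes, the fewest without DZN-Cy3 replicate 1. The range of level between arrays, likewise added, was 1.52 to 3.83 for pgl-3 and 2.38 to 3.85 for deps-1 with 1 array left out, both lowest without DZN-Cy5 replicate 2. No block was run for the scan date (1 date), nor was the dimmer glh-4 probe, not above background, used.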
